A study of Rattus norvegicus with 6 samples.

Results

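The small leucine-rich proteoglycans are described here in RNA from rat subchondral bone, the bone plate and marrow-filled bone that lie under the joint cartilage. The 10 genes were chosen by name: Dcn, Lum, Bgn, Fmod, Omd, Ogn, Aspn, Prelp, Epyc and Chad. Each had 1 row in the table, so all 10 were measured, out of 30600 rows with values, of which 22050 were annotated rat genes. The series set rats kept in the cold against rats kept at normal temperature and looked for molecules tied to joint disease. RNA was sequenced in 6 libraries with the titles S10, S12, S13, S20, S21, S23. The labels give the tissue as subchondral bone and its cells for every library, and give no temperature, strain, age, sex or animal. No library was therefore placed in a group, no cold effect was tested, and each value below stands for a single library. Values are FPKM, fragments scaled to transcript length and to library size, which allow levels of different genes to be compared.

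Small leucine-rich proteoglycans are secreted proteins built from leucine-rich repeats that curve into a solenoid. Most carry chondroitin, dermatan or keratan sulfate chains. They lie along collagen fibrils, where they set fibril spacing and width, and several bind growth factors of the TGF-beta family. In bone and cartilage they take part in matrix assembly and mineral deposition. Decorin (Dcn) and biglycan (Bgn) are close relatives with chondroitin or dermatan sulfate chains, and asporin (Aspn) is their relative with an aspartate-rich stretch. Lumican (Lum), fibromodulin (Fmod), osteoadherin (Omd) and Prelp form a related branch of collagen binders. Osteoglycin (Ogn) and epiphycan (Epyc) form another branch, and chondroadherin (Chad) is a cartilage protein that binds collagen and cells.

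The tissue label was checked against marker genes. All 8 osteoblast and osteocyte markers reached a median of 1 FPKM, led by Bglap (439 FPKM), Ibsp (173 FPKM) and Alpl (41.3 FPKM). Of 8 chondrocyte markers 6 did, led by Col9a3, Cnmd and Col9a2. Of the others, Sox9 had a median of 0.398 FPKM, and Matn1 had 0 counts in 3 libraries. Total counts were 39990624 to 59200981 per library. Globin transcripts, summed over Hbb and the rows Hba-a1, Hba-a2 and Hba-a3, made up 10.4% of counts in S23 and 27.6% in S10. S10 stood apart: among 11625 annotated genes at a median of at least 1 FPKM, the typical gene lay 0.31 log2 units under its own median there, and within 0.14 log2 units of it in the other libraries. In S10 the shift was -0.58 for genes in the top quartile of length and 0.04 for those in the bottom quartile. S12 and S20 leaned the other way, with 0.31 and -0.05 in S12 and 0.32 and -0.18 in S20. In S13, S21 and S23 both shifts lay between -0.08 and 0.08. Scaling with TMM factors, which centre the bulk of genes, brought the typical gene within 0.02 log2 units of its median in every library.

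Start-site sequences are shown for 5 members whose levels the account turns on. Chad and Lum differ most in spread over the libraries after scaling among the members with a sequence, and Ogn, Omd and Aspn are genomic neighbours, with Ogn highest in a library where Aspn was low. Sequences are those of RefSeq on the assembly GRCr8, which held 7 of the 10 members. Each runs 5′ to 3′ on the strand of the gene, from 250 bases before to 50 bases after the transcript start, with motif matches in capitals. The windows lie at chr7:34245456-34245755 on the plus strand, chr10:80008795-80009094 on the plus strand, and chr17:15258946-15259245, chr17:15274821-15275120 and chr17:15310420-15310719, all on the minus strand.
Lum: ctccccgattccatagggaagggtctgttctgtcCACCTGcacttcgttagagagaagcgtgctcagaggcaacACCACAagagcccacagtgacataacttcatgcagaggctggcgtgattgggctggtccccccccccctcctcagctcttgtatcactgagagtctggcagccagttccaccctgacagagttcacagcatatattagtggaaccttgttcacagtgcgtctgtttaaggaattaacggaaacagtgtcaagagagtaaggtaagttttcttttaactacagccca
Chad: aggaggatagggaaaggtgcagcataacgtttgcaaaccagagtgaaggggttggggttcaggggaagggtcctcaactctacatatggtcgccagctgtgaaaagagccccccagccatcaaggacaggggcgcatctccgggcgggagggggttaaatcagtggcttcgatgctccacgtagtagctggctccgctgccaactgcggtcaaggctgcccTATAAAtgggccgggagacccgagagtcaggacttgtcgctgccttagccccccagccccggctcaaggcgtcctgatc
Ogn: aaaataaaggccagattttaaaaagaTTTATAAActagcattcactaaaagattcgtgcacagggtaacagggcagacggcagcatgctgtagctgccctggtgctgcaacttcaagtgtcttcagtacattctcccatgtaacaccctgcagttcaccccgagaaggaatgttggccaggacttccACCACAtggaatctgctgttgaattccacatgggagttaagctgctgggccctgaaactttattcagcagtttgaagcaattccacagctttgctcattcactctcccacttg
Omd: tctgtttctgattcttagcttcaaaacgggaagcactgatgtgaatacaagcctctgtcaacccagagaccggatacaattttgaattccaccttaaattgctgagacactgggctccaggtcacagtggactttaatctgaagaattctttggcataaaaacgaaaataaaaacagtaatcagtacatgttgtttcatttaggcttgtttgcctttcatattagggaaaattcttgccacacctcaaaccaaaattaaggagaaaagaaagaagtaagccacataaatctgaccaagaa
Aspn: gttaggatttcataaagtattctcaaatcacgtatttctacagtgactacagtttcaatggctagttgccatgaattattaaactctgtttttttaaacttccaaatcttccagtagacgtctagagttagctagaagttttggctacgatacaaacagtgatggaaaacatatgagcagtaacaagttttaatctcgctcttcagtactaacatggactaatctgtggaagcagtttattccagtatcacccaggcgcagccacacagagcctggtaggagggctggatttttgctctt

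Capitals mark exact matches, on either strand, to a TATA box (TATAAA), a RUNX core (TGTGGT), an AP-1 site (TGAGTCA), a SOX core (ACAATG) or an E box (CACCTG). In the Chad window a TATA box began 29 bases before the start. The Ogn window held TATA matches that began 222 and 224 bases before the start and overlap each other, as well as a RUNX core 63 bases before it on the opposite strand. In the Lum window a RUNX core on the opposite strand began 176 bases before the start, and an E box 216 bases before it. The Omd and Aspn windows held none of these letters. Over 33469 rat promoters of the same length, 14.2% held the TATA box, 17.3% the RUNX core, 4.63% the AP-1 site, 13.2% the SOX core and 18.8% the E box. Base composition set the windows apart: the GC content was 60.0% for Chad and 50.7% for Lum, against 46.0% for Ogn, 39% for Aspn and 37.7% for Omd, with a median of 51.7% over all promoters. A match describes the letters and does not show a bound site.

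Lum, Bgn and Dcn made up most of the family. Lum had a median of 80.7 FPKM, Bgn 44.3 FPKM and Dcn 38.9 FPKM, and together they held 76.0% (S12) to 85.3% (S23) of the summed FPKM of the 10 genes. Chad followed at 17.3 FPKM, Fmod at 9.53 FPKM, Prelp at 8.09 FPKM, Ogn at 5.50 FPKM, Omd at 1.99 FPKM, Aspn at 1.11 FPKM and Epyc at 0.178 FPKM. Thus 9 of 10 members had a median of at least 1 FPKM, where 52.7% of all annotated genes did. Lum lay above 92.4% of the genes expressed at that level, Fmod above 51.3% and Aspn above 1.69%.

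**Figure D1:**
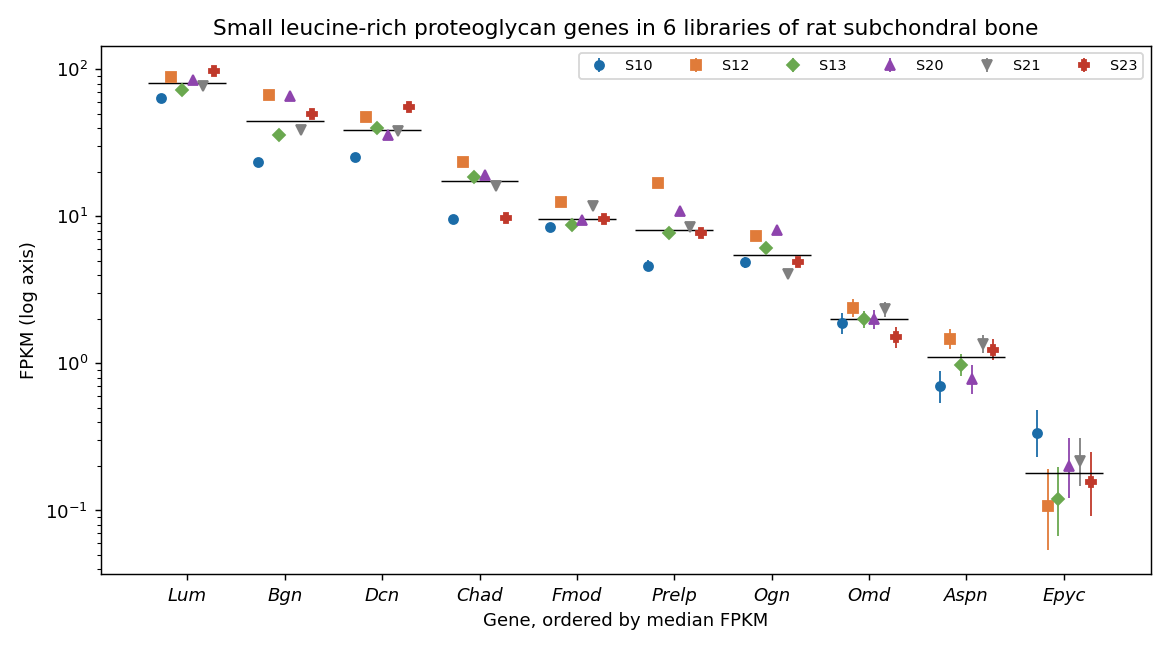
FPKM of each gene (log axis) in each of the 6 libraries, with bars for exact 95% binomial counting intervals and a black line at the median. Lum is the highest gene in all 6 libraries, and Epyc, at 0.108 to 0.338 FPKM, lies under every other member.

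The order of levels was firm in part. Lum exceeded Bgn within all 6 libraries, although their ranges touched (lowest Lum 63.9 FPKM, highest Bgn 66.6 FPKM). Bgn and Dcn did not differ in order: Bgn was the higher in 3 libraries and Dcn in S10, S13 and S23. Dcn lay above Chad with no overlap over the libraries. Chad exceeded Fmod in all 6 libraries. Fmod exceeded Prelp in 4 libraries, with Prelp the higher in S12 and S20, and Prelp exceeded Ogn in 5 libraries. Below them, Ogn, Omd, Aspn and Epyc followed each other in every library with no overlap of their ranges.

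The summed level of the family differed between the libraries, and most of that difference depended on the scaling. The sum was 143 FPKM in S10, 191 FPKM in S13, 198 FPKM in S21, 237 FPKM in S20, 237 FPKM in S23 and 267 FPKM in S12. As a share of counts this was 0.0347% in S10 (exact 95% binomial interval 0.0341% to 0.0353%) and 0.0655% in S12 (0.0647% to 0.0662%), intervals that cover counting error only. The range of the sum was 0.90 log2 units, 0.48 without S10, and 0.30 after TMM scaling, when the sum was 188 FPKM in S10 and 231 FPKM in S12. S12 remained highest and S10 lowest after that scaling. Fewer cells that make these transcripts and less of the transcripts per cell cannot be told apart in bulk RNA. Against the chains of type I collagen, Col1a1 and Col1a2 summed, the family stood at 0.474 in S12 and at 0.822 in S23, with 0.574 to 0.661 in the other libraries. This ratio was not corrected for gene length, and the shift with length differed between libraries.

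**Figure D2:**
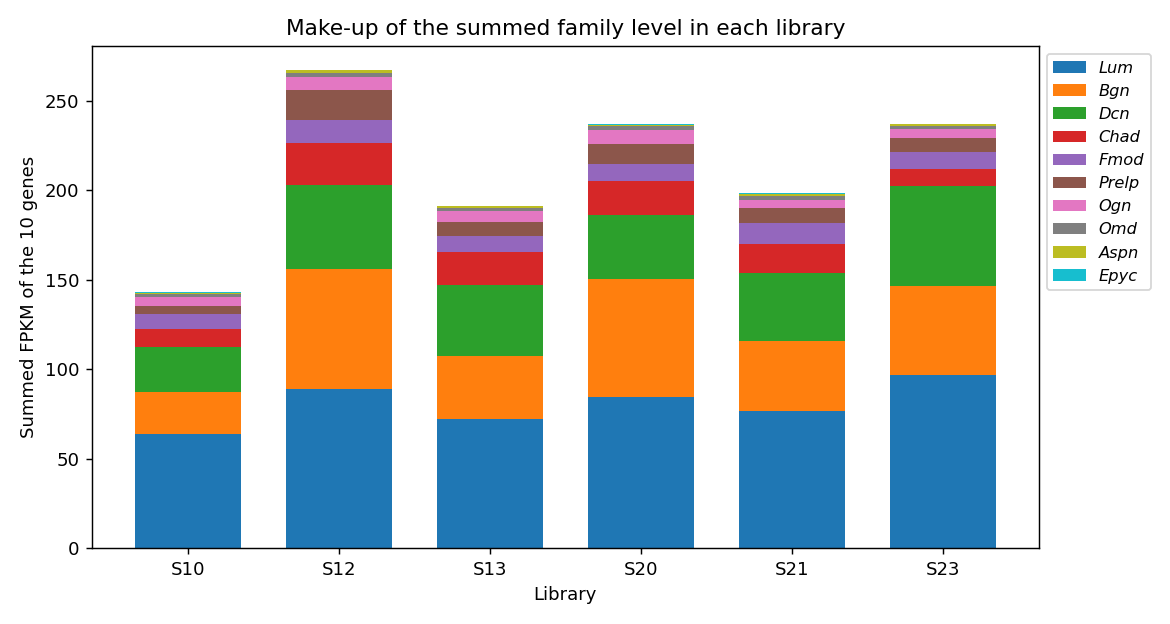
Stacked bars of FPKM for the 10 genes in each library, from 0. The sum is 143 FPKM in S10 and 267 FPKM in S12, and Lum, Bgn and Dcn fill 76.0% to 85.3% of every bar.

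Of the 9 members at a median of at least 1 FPKM, 4 had a range of at least 1 on the log2(FPKM + 1) scale: Prelp (1.67), Bgn (1.46), Chad (1.21) and Dcn (1.11). Among all 11625 genes at that level 36.6% had such a range, so the share of the members is close to the background. The median range of the 9 members was 0.84, against 0.83 over all genes. Without S10 the count was 2 (Chad and Prelp), against a background of 13.6%, and after TMM scaling it was again 2 (Prelp and Chad), against a background of 29.4%. Of the 10 members 7 were lowest in S10, as were 60.1% of all genes, and 6 were highest in S12, as were 26.6% of all genes. After TMM scaling 2 members were lowest in S10 (background 32.9%) and 2 were highest in S12 (background 13.4%). With length correction, which removes the median shift of each library among genes of like length, 1 member (Chad) had a range of at least 1 (background 19.8%), 3 were lowest in S10 (background 29.7%) and 2 were highest in S12 (background 14.4%). In all 10 members the counting intervals of the highest and the lowest library were separate. Those libraries were picked as the extremes of the same values, so their separation is no test of the spread. Counting error is the only error these single libraries provide.

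**Figure D3:**
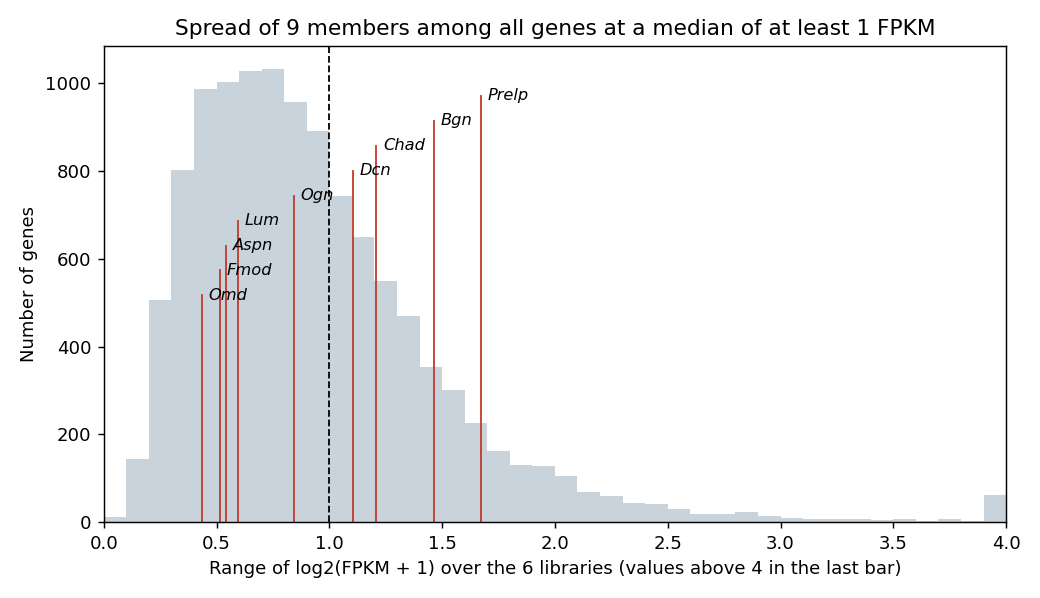
Number of genes (grey bars) by the range of log2(FPKM + 1) over the 6 libraries, for all 11625 genes at a median of at least 1 FPKM, with the 9 members at that level as red lines and the threshold of 1 dashed. Omd, Fmod, Aspn, Lum and Ogn lie under the threshold, and Prelp has the widest range of the 9 in these deposited values, 1.67.

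Lum had the narrowest range of the 4 members with the highest medians. It had 63.9 FPKM in S10, 72.0 in S13, 76.8 in S21, 84.5 in S20, 89.2 in S12 and 97.0 in S23. The libraries formed a graded series with S10 lowest and S23 highest. The range of 0.60 log2 units was 0.26 after TMM scaling and 0.34 with length correction. The share of genes with a smaller range was 29.3% in the deposited values, 4.31% after TMM scaling and 19.2% with length correction. After TMM scaling Lum had its lowest value, 74.8 FPKM, in S13 and its highest, 89.7 FPKM, in S23.

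Dcn was highest in S23 as well, and these were the only 2 of the 10 members highest there, where 24.0% of all genes were. Its values were 25.3 FPKM in S10, 36.0 in S20, 38.2 in S21, 39.6 in S13, 47.3 in S12 and 55.6 in S23. S10 lay under the other libraries and S23 above them. Dcn and Lum were each highest in S23 in 5 of 6 settings (deposited values, TMM factors, median-ratio factors, a common FPKM sum, such a sum without globins, and length correction), and highest in S12 in the other, the sum without globins. The lowest library of Dcn moved from S10 to S20 after TMM scaling (32.2 FPKM, against 51.4 FPKM in S23). The collagen gene Col3a1 was also highest in S23, at 48.1 FPKM against 7.59 to 24.6 FPKM elsewhere. Of the 9 listed collagen genes at a median of at least 1 FPKM, 2 were highest in S23 (background 24.0%). The other 7 were highest in S12 (background 26.6%). All 6 neutrophil markers were highest in S23, with a sum of 70283 FPKM there and 15174 to 40791 FPKM elsewhere. None of the neutrophil markers had 0 counts in any library. Their part in the Dcn and Lum levels was not tested.

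Bgn, whose product binds collagen and growth factors in bone matrix, had a different profile from its relative Dcn. It had 23.5 FPKM in S10, 35.6 in S13, 38.9 in S21, 49.7 in S23, 65.7 in S20 and 66.6 in S12. S12 and S20 stood together above the rest. S10 was the lowest library in all 6 settings, and the highest was S20 in 5 of them and S12 in the deposited values. The ratio of Bgn to Dcn within a library does not depend on the scaling between libraries. It was 1.82 in S20 (95% counting interval 1.75 to 1.90), 1.41 in S12, 1.02 in S21, 0.931 in S10, 0.90 in S13 and 0.894 in S23 (0.862 to 0.928). Its range was 1.03 log2 units, and 0.66 without S20. Lum over Dcn varied less, from 1.75 in S23 to 2.53 in S10, a range of 0.53 log2 units.

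**Figure D4:**
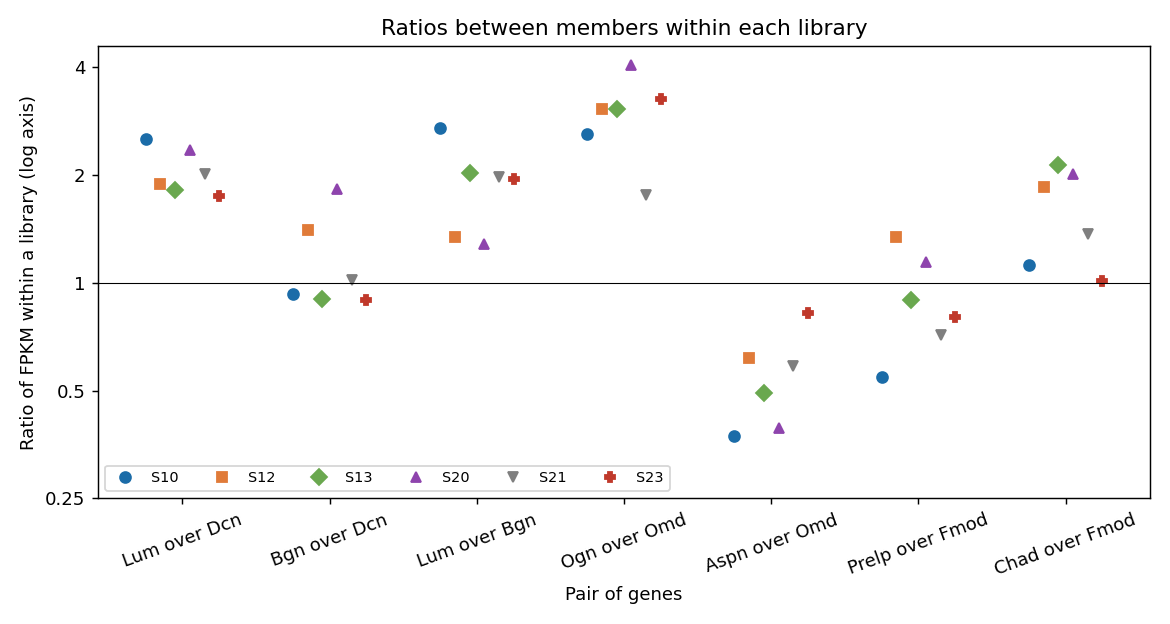
Ratios of FPKM between pairs of members within each library (log axis), with a line at equality. Bgn over Dcn is 1.82 in S20 and 1.41 in S12 and at most 1.02 in the other libraries, and Ogn over Omd spans 1.75 in S21 to 4.07 in S20.

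Chad was low in 2 libraries. It had 9.54 FPKM in S10 and 9.70 in S23, and 16.2 in S21, 18.5 in S13, 19.1 in S20 and 23.3 in S12. No library lay between 9.70 and 16.2 FPKM. S10 shared the lower level with most genes, and after TMM scaling S10 stood at 12.5 FPKM and S23 at 8.96 FPKM, against 16.7 to 20.2 FPKM in the others. Chad was highest in S12 in all 6 settings. Chad over Fmod was 1.01 in S23 (0.942 to 1.09), 1.12 in S10, 1.37 in S21 and 1.86 to 2.13 in S12, S13 and S20. Against Acan, the large cartilage proteoglycan aggrecan, Chad stood at 2.03 in S23 and at 3.11 to 4.65 elsewhere, without correction for gene length. Thus S23 held the highest Dcn and Lum and, by these ratios, the lowest Chad. The sum of the 8 chondrocyte markers was 85.0 FPKM in S23, and 54.8 FPKM (S13) to 99.1 FPKM (S12) in the other libraries. Their part in the Chad level was not tested.

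Prelp, a collagen binder that also holds heparan sulfate, had the widest range in the deposited values. It had 4.63 FPKM in S10, 7.67 in S23, 7.74 in S13, 8.43 in S21, 10.8 in S20 and 16.9 in S12. S12 was highest and S10 lowest in all 6 settings. Between them the values were graded, and without S12 the range was 1.07 log2 units in place of 1.67. The rank was lost without S10 (Prelp 1.05, Chad 1.19), without S12 (Bgn 1.44, Dcn 1.11) and with length correction (Prelp 0.97, Bgn 0.97, Chad 1.08). Prelp over Fmod, its genomic neighbour, was 1.35 in S12 (1.27 to 1.43) and 0.545 in S10 (0.494 to 0.60), with 0.715 in S21 the lowest of the other libraries. S12 also had the highest sum of the muscle markers (122 FPKM, against 13 to 53.5 elsewhere, 5 of 8 with a row) and of the adipocyte markers (813 FPKM, against 285 to 675 elsewhere, 6 of 6 with a row). Among the adipocyte markers Lep had 0 counts in S21 and S23, and no measured marker of either list was at 0 in S12. Their part in the Prelp level was not tested.

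Fmod, which acts on collagen crosslinking, was among the steadier members. It had 8.50 FPKM in S10 and 12.6 in S12, with a median of 9.53 and a range of 0.51 log2 units. Its lowest library became S20 and its highest S21 after TMM scaling.

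**Figure D5:**
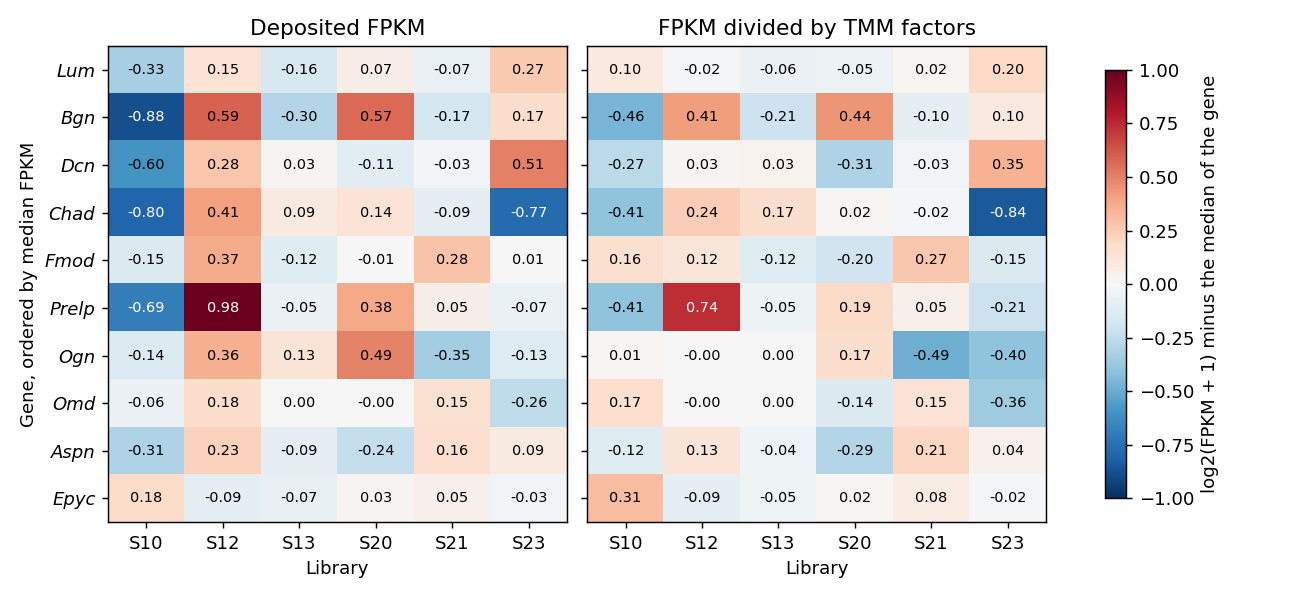
Difference of log2(FPKM + 1) from the median of each gene, for 10 genes (rows) in 6 libraries (columns), from deposited FPKM (left) and after division by TMM factors (right). The low S10 column on the left fades on the right, while Chad in S23 (-0.77 and -0.84) and Prelp in S12 (0.98 and 0.74) keep their distance.

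Ogn, Omd and Aspn lie next to each other in the rat genome. Ogn had 4.08 FPKM in S21, 4.87 in S10, 4.91 in S23, 6.09 in S13, 7.30 in S12 and 8.12 in S20, with S20 highest and S21 lowest in all 6 settings. Omd, a protein of mineralized matrix, had 1.51 FPKM in S23 (149 counts), 1.87 in S10, 1.99 in S20, 2.0 in S13, 2.33 in S21 and 2.39 in S12. Its S23 value was lowest in 5 of 6 settings. Aspn, which binds collagen and TGF-beta, had 0.700 FPKM in S10 (66 counts), 0.782 in S20, 0.982 in S13, 1.24 in S23, 1.36 in S21 and 1.48 in S12. S10 and S20 were thus low for Aspn, where S20 was highest for Ogn. Ogn over Omd was 4.07 in S20 (95% counting interval 3.46 to 4.82) and 1.75 in S21 (1.53 to 2.02), with 2.60 to 3.26 in the other libraries. Its range was 1.21 log2 units, and 0.65 without S21. Aspn over Omd was 0.822 in S23 (0.650 to 1.04) and 0.374 in S10 (0.276 to 0.501).

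Epyc, a product of growth plate cartilage, was at the edge of detection. It had 11 counts in S12, 15 in S13, 17 in S23, 19 in S20, 30 in S21 and 31 in S10. These counts correspond to 0.108 FPKM in S12 (counting interval 0.0537 to 0.192) and 0.338 FPKM in S10 (0.229 to 0.479). S10 was highest and S12 lowest in all 6 settings, the reverse of Prelp. Only these extremes were compared, and the intervals of S21, S20 and S23 overlapped that of S10.

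The genomic clusters of the family were compared by profile. The measure was the mean absolute difference, over the 6 libraries, of log2(FPKM + 1) centred on the median of each gene. Over the 36 pairs of the 9 members at a median of at least 1 FPKM it ran from 0.13 (Fmod and Aspn) to 0.47. The 5 pairs from the same cluster had a median of 0.25 (0.17 to 0.33) and the other 31 pairs a median of 0.33 (0.13 to 0.47). Within clusters, Omd and Aspn lay 0.17 apart, Lum and Dcn 0.17, Ogn and Omd 0.25, Fmod and Prelp 0.32, and Ogn and Aspn 0.33. These ranges overlap, pairs share genes, and genes with little spread lie close to each other by construction. The genes next to the members had a wide span of levels. Btg1 beside Dcn had a median of 165 FPKM and Btg2 beside Fmod 76.4 FPKM, while the wider-family genes Kera between Lum and Epyc and Optc beside Prelp had 0.0612 and 0.179 FPKM, and Atp2b3 beside Bgn and Ccer1 beside Epyc had medians of 0 FPKM. Haus7 beside Bgn had a median of 13.2 FPKM and a range of 0.29, against 1.46 for Bgn. The neighbours of Chad, Acsf2 and Lrrc59, had ranges of 1.09 and 1.15. Cenpp beside Ogn and Rpl6-ps6 beside Aspn had no row by name.

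Genes outside the family with the nearest profiles were sought among 9173 named genes at a median of at least 1 FPKM and a range of at least 0.5. With 6 libraries and that many genes, close profiles are found for most genes, and they describe these libraries only. Lum lay nearest to Npl (mean absolute difference 0.020), Tmco6 (0.022) and Snapc3 (0.031). Dcn lay near Ykt6 (0.043) and Zfp36 (0.047), and Bgn to Sec16a, Pde3a and Mcm3ap (0.051 to 0.057). Chad had no match that close, with LOC103690020 at 0.074, RGD1310507 at 0.094 and Cntnap1 at 0.11. Prelp lay nearest to Pc (0.087), Epas1 (0.10) and Sod3 (0.10). For Fmod the nearest were LOC100360218, Ubap1l and Npdc1 (0.073 to 0.082), for Ogn Cr2, Plpp7 and Jmjd4 (0.031 to 0.059), for Omd Gatc, Pdlim4 and Cpxm1 (0.048 to 0.059), and for Aspn Rnf19b, Por and Arrdc2 (0.045 to 0.055).

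Other genes of the family were mostly lower. Of 8 further members of the wider family 7 had a row, and 3 of them reached a median of 1 FPKM: Podnl1 (6.95 FPKM), Tsku (6.63 FPKM) and Chadl (1.37 FPKM). All 3 were highest in S12 (background 26.6%), and after TMM scaling 1 was (background 13.4%). None had a range of 1 or more, where 36.6% of all genes did. The eye and cornea genes Nyx, Optc and Kera had medians of 0.108, 0.179 and 0.0612 FPKM.

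The enzymes that build the sugar chains were expressed alongside. Of 22 genes for chondroitin and dermatan sulfate synthesis, 16 reached a median of 1 FPKM (52.7% of annotated genes did), and 5 of these had a range of at least 1 (background 36.6%). Without S10 the 5 became 1 (background 13.6%). The highest were the sulfotransferase Chst12 (69.7 FPKM), the linker enzyme B3gat3 (37.4 FPKM) and Csgalnact2 (17.2 FPKM). Dse, the epimerase that makes dermatan sulfate, had a median of 3.21 FPKM and was lowest in S10. So were 13 of the 16 genes in all (background 60.1%), and 4 of the 16 after TMM scaling (background 32.9%). Of the enzymes that start the chains, Xylt2 had a median of 9.01 FPKM and a range of 0.44, and Xylt1 a median of 0.944 FPKM, with 0.171 FPKM in S10 and 0.422 to 1.71 FPKM in the other libraries. Of 8 genes for keratan sulfate synthesis 6 reached 1 FPKM, led by B3gnt2 (63.8 FPKM), B4galt1 (14.7 FPKM) and Chst2 (4.05 FPKM). Chst4 had 0 counts in 4 libraries.

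The fibrillar and fibril-linked collagens that these proteins bind were measured from a list of 11 genes. Of these, 10 had a row and 9 a median of at least 1 FPKM, and all 9 had a range of at least 1 (background 36.6%) and were lowest in S10 (background 60.1%). Without S10, 5 of the 9 had such a range (background 13.6%), and after TMM scaling 4 did (background 29.4%) and 6 were lowest in S10 (background 32.9%). Their median range was 1.35, against 0.84 for the members and 0.83 for all genes. It was 1.01 without S10, against 0.61 and 0.56, and 0.89 after TMM scaling, against 0.66 and 0.72. These differences were not tested. No length-corrected values are given for the collagens, although genes in the top quartile of length had shifts of -0.58 in S10 and 0.31 in S12. The highest were Col1a1 (202 FPKM), Col1a2 (115 FPKM) and Col2a1 (112 FPKM). Bgn kept a narrow ratio to Col5a2, a chain of the fibril-starting type V collagen, of 4.35 in S13 to 5.91 in S10, a range of 0.44 log2 units. That pair was chosen after its values were seen. Dcn over Col3a1, in contrast, was 1.16 in S23 and 3.33 in S10.

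Proteases, receptors and ligands of the pathway were measured as well. Among 10 proteases 6 reached 1 FPKM, led by Mmp13 (157 FPKM), the procollagen enhancer Pcolce (20.1 FPKM) and Mmp14 (16.0 FPKM). Bmp1, which trims the biglycan propeptide, had a median of 6.23 FPKM. Of 19 ligands and receptors 18 had a row and 14 reached 1 FPKM, and 6 of these had a range of at least 1 (background 36.6%), or 2 without S10 (background 13.6%). Tgfb1, which decorin and biglycan bind, had a median of 72.8 FPKM, Cd44 51.6 FPKM and the integrin chain Itgb1 49.97 FPKM. Tlr2 and Tlr4, receptors for soluble biglycan, had medians of 18.6 and 2.99 FPKM. Both were highest in S23, the library with the highest neutrophil markers, as were 6 of the 14 in all (background 24.0%). The part of neutrophils in these levels was not tested. Among large proteoglycans Prg4 (9.17 FPKM), Vcan (4.44 FPKM) and Acan (4.38 FPKM) lay under Lum, Bgn, Dcn and Chad in median. In S23, however, Prg4 (11.7 FPKM) and Vcan (9.92 FPKM) lay above Chad (9.70 FPKM).

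Other cell types of the marrow and joint were present. The tendon and fibroblast list held 6 of 9 genes at 1 FPKM, led by Thy1 (42.1 FPKM), Comp (32.0 FPKM) and Pdgfrb (5.70 FPKM), while its tendon-defining genes Scx and Tnmd had medians of 0.307 and 0.206 FPKM, Tnmd with 0 counts in S10. The marrow stromal genes Cxcl12 (142 FPKM), Vcam1 (48.9 FPKM), Kitlg and Lepr were all highest in S12 (background 26.6%). All 4 remained so after TMM scaling (background 13.4%). Their sum was lowest in S23, as was the Omd level. The sums of the osteoblast and osteocyte, adipocyte and erythroid markers were also lowest there. The first sum was led by Bglap, which was lowest in S23 (255 FPKM), whereas Alpl was highest there (64.7 FPKM). Of the 8 osteoblast and osteocyte markers 6 were lowest in S10 (background 60.1%), and 5 after TMM scaling (background 32.9%). The erythroid sum was led by globins, and 1 of the 5 erythroid markers with a row was lowest in S10. The macrophage list (C1qa, 169 FPKM) had sums of 413 to 641 FPKM and the endothelial list (Egfl7, 12.8 FPKM) sums of 28.9 to 40.1 FPKM. The part of these cell types in the levels of the members was not tested.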

How the data were processed

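RNA of 6 rat subchondral bone libraries was measured by RNA-seq, with total RNA isolated with an RNeasy kit and libraries made with a SMARTER mRNA-Seq kit, per the labels' protocols. The authors deposited raw counts per gene, which are whole numbers with no normalization, and FPKM values (scaled to transcript length and library size), per the file headers. For the aligner and the counting tool, nothing was given in the sources used here. The submitters' processing notes name the mouse builds GRCm38 and mm10, whereas rows carry rat Ensembl IDs, so no coordinates of the measured rows are given, and GRCr8 served only for gene order and promoter sequences.

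All value columns were used, and of 30610 rows 10 held no values. The labels give no groups, and nothing says that the libraries came from separate animals, so no test was made. Spread is the range of log2(FPKM + 1), which understates low genes. A range of at least 1 and a median of at least 1 FPKM were the thresholds. Total counts set the precision through exact 95% binomial (Clopper-Pearson) intervals, which cover counting error only. Whether counting used strand is not given, so reads of overlapping genes cannot be told apart. Alternatives were TMM factors (edgeR 4.0.16), median-ratio factors, common FPKM sums, a pseudocount of 0.1, correction in 20 bins of the gene length implied by counts and FPKM, and leaving out each library. The range and scaling code was tested on simulated data. Of 159 list entries 150 had a row by name.

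The 10 members and the gene lists were chosen with earlier results of these data known. Genes named are the members, up to 3 genes of each list with the highest medians, the 3 nearest profiles of each member and its genomic neighbours, apart from a gene that is not reported here. Named otherwise, after their values were seen, are Dse, Xylt1, Xylt2, Bmp1, Chst4, Col3a1, Col5a2, Kitlg, Lepr, Tlr2, Tlr4, Nyx, Matn1, Sox9, Lep, Scx and Tnmd. The counts of members lowest in S10 and highest in S12, and those of the lists without S10 or with TMM factors, were also added then.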

Additional observations from a re-analysis of the deposited data

How the results depend on the processing

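The range of the summed family level (0.90 log2 units) was 0.30 with TMM factors, 0.29 with median-ratio factors, 0.43 with length correction, 1.23 with a common FPKM sum and 1.09 with a common sum without globins, and 0.48 to 0.90 when each library was left out in turn, lowest without S10. S12 was highest and S10 lowest under all 5 of those scaling and length settings. Members with a range of at least 1 (4) numbered 2 with TMM factors, 2 with median-ratio factors, 1 with length correction, 4 with a common FPKM sum, 5 with such a sum without globins, 5 with a pseudocount of 0.1, and 2 to 4 with a library left out. Members lowest in S10 (7) numbered 2, 2 and 3, and members highest in S12 (6) numbered 2, 2 and 2, under TMM, median-ratio and length settings. With a common FPKM sum these numbers were 8 and 5, and without globins 6 and 7. The number of members at a median of at least 1 FPKM was 8 or 9 under every scaling and with each library left out, 10 at a minimum of 0.1 FPKM and 7 at a minimum of 5 FPKM. Ratios of counts in place of FPKM left the ranges of Lum over Dcn (0.53), Bgn over Dcn (1.03) and Ogn over Omd (1.21) in place. With libraries left out, the range of Lum over Dcn was 0.43 to 0.53, of Bgn over Dcn 0.66 to 1.03 and of Ogn over Omd 0.65 to 1.21. The cause of the differences between settings was not tested. No paired analysis was possible because the labels give neither groups nor replicate numbers. Counts of 11 to 31 limit Epyc, and those of 66 to 205 limit Aspn.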
